A study of Mus musculus with 12 samples.

Results

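The goblet cell mucus genes are 10 genes chosen by name, namely Muc2, Agr2, Tff3, Fcgbp, Clca1, Zg16, Spink4, Spdef, Muc13 and Muc3, out of 54232 genes in the count table. All 10 were found by symbol, passed the filter on low values, and had at least 7 counts in each of the 12 libraries. They were followed in intestinal stem cells (ISCs) sorted from small intestinal crypts of female mice, with 1 mouse per 3′ RNA sequencing library and 3 libraries in each of 4 groups. SM6 young and SM6 old came from C57/Bl6 WT mice at 2 and 22 months, with ISCs sorted by a set of surface markers. Lgr5-GFP young and Lgr5-GFP old came from Lgr5-EGFP-IRES-CreERT mice at the same ages, in which the Lgr5 locus drives a green fluorescent reporter and an inducible recombinase (so spelled in the labels, and CreERT2 in the study's methods). All mice were otherwise untreated as far as the labels state. The protocol in the labels gives the surface marker sort for every library, whereas supplementary material describes gating of the reporter mice on fluorescence, so strain and isolation cannot be told apart.

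Goblet cells are the mucus-secreting cells of the intestinal epithelium and arise from the secretory lineage, in which the transcription factor ATOH1 acts first and SPDEF later. MUC2 is joined into disulfide-linked dimers in the endoplasmic reticulum, heavily O-glycosylated in the Golgi, assembled into larger polymers late in the secretory pathway, and released with smaller partners as the mucus gel. MUC13 and MUC3 differ from it in being anchored in the apical membrane. On GRCm38 the members form no single cluster. Muc2 (chr7:141690340-141754693, plus strand), Fcgbp (chr7:28071236-28120862, plus) and Zg16 (chr7:127050156-127087328, minus) share chromosome 7. Tff3 (chr17:31125306-31129646, minus) and Spdef (chr17:27714352-27728955, minus) share chromosome 17. Each other member is alone on its chromosome, with Agr2 at chr12:35992907-36004087 (plus), Clca1 at chr3:145003817-145032776 (minus), Spink4 at chr4:40920052-40931395 (plus), Muc13 at chr16:33794037-33819934 (plus) and Muc3 at chr5:137134922-137149322 (minus). Counts covered all annotated exons of each gene. Sorted stem cell fractions can also hold lineage-primed or differentiated secretory cells. In a bulk library, fewer cells of a type and less RNA per cell cannot be told apart.

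The start regions of 3 members are shown because Muc2 and Agr2 followed each other most closely among the members with a promoter window, while Muc13 showed no age difference past the threshold. The closeness is by Pearson r over the 12 libraries (0.95). After removal of the group means, Agr2 and Fcgbp, which also has a window, were closer (0.92 against 0.75). The windows are RefSeq sequence on GRCm38.p6, from 250 bases before to 50 bases after an annotated start, and 6 of the 10 members had such a window. Muc2 lies at chr7:141690090-141690389, Agr2 at chr12:35992675-35992974 and the first of 2 Muc13 windows at chr16:33793787-33794086, all on the plus strand. Capitals mark matches, on either strand, to CAGNTG (the E-box of factors such as ATOH1), CNGGAT (an ETS site with the core that SPDEF prefers) or TATAAA, the letters of a TATA box wherever they fall in the window.
Muc2: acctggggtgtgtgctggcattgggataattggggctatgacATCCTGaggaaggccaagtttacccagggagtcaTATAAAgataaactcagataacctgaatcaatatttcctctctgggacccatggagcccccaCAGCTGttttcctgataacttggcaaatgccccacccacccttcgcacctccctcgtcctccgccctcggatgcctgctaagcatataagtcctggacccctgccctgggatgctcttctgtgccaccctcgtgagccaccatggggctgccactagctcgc
Agr2: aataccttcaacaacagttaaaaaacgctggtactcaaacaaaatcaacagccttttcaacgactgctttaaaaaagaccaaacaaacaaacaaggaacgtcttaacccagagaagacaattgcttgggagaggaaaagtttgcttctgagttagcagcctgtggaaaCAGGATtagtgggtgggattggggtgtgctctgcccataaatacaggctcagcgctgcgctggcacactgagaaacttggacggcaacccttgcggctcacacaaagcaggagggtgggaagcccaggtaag
Muc13: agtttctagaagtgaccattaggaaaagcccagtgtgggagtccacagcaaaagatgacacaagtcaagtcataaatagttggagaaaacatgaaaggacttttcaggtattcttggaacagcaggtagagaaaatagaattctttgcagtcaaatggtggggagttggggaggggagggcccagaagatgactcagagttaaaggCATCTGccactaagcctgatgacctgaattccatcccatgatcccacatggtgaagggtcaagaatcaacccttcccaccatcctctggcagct
The Muc2 window held CNGGAT with its first base at -208, TATAAA at -174 and CAGNTG at -112 from the start. In the Agr2 window the match was CNGGAT at -82, and in the first Muc13 window CAGNTG at -44. The second Muc13 window (chr16:33794239-33794538, not printed) held CAGNTG at -195 and CNGGAT at -93 from its own start, so Muc13 had a CNGGAT match too. The matches in these windows did not overlap. TGTTTAC (a forkhead site) and ACGTG (the core of sites of XBP1 and CREB3L factors) were searched too and were not in these windows. Over all 32851 windows, CAGNTG was in 51.4%, CNGGAT in 37.2%, ACGTG in 19.6%, TATAAA in 13.6% and TGTTTAC in 3.65%. These are matches of letters only.

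The libraries held between 970472 and 3815425 counts (median 1424340), and levels are given as CPM (counts scaled to a common library size) after trimmed mean (TMM) scaling. Old was compared with young in each isolation, as the average of both and as the difference of both age effects, and Lgr5-GFP with SM6 at each age. The test was edgeR's quasi-likelihood test on all 12 libraries, adjusted by the Benjamini-Hochberg method over 13368 genes, with a gene called at an adjusted p under 0.05. Stem cell markers were present throughout, with 245 to 969 counts of Lgr5 per library. Immune markers were near 0, with a summed level of 6.75 to 45.4 CPM over 12 genes, as were stromal and endothelial markers, at 0 to 8.68 CPM over 12 genes, of which 6 were at 0 in every library. Paneth cell transcripts were not. Defensin (Defa) genes, the defining Paneth cell products, took 1.26% to 23.2% of a library's counts, and the highest shares were 23.2% in Lgr5-GFP young replicate 1 and 23.1% in SM6 old replicate 3. When library totals alone were used, without TMM, the median log2 fold change of all genes went from -0.00695 to -0.16 for age in SM6, from -0.03 to 0.16 for age in Lgr5-GFP and from 0.00354 to 0.35 for their difference. The share of calls that were higher then went from 26.6% to 15%, from 39.7% to 60.8% (54.2% with DESeq2) and from 7.95% to 46.0% respectively. Between the isolations it went from 58.3% to 32% at 2 months and from 6.25% to 24.3% at 22 months. Medians of the members are therefore given beside the median of all genes.

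Together the 10 genes took 0.805% ± 0.169 of all counts (SD, n = 3) in SM6 young and 1.71% ± 0.205 in SM6 old. The single shares were 0.952%, 0.621% and 0.843% in replicates 1 to 3 of SM6 young and 1.80%, 1.86% and 1.48% in those of SM6 old, so all old libraries lay above all young ones. In Lgr5-GFP the order was the opposite, with 0.843% ± 0.302 in young and 0.522% ± 0.141 in old. There the single shares were 1.18%, 0.759% and 0.592% in young and 0.639%, 0.562% and 0.366% in old, so the groups overlapped. Lgr5-GFP old also had the highest mitochondrial shares, at 7.37% to 9.33% of counts against 4.02% to 6.29% in Lgr5-GFP young and at most 7.01% in SM6, and the fewest genes detected on average (14724 ± 627, against 16171 ± 1810 in Lgr5-GFP young). The part of these in the member values was not tested. The 95% Wilson interval of such a share was 0.626% to 0.652% for the share of 0.639%, and it covers counting error only. Spink4, which encodes a small Kazal-type peptidase inhibitor of goblet cells, supplied most of the counts in some libraries, from 32.9% of the member counts in SM6 old replicate 1 to 71.0% in Lgr5-GFP young replicate 1.

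**Figure D1:**
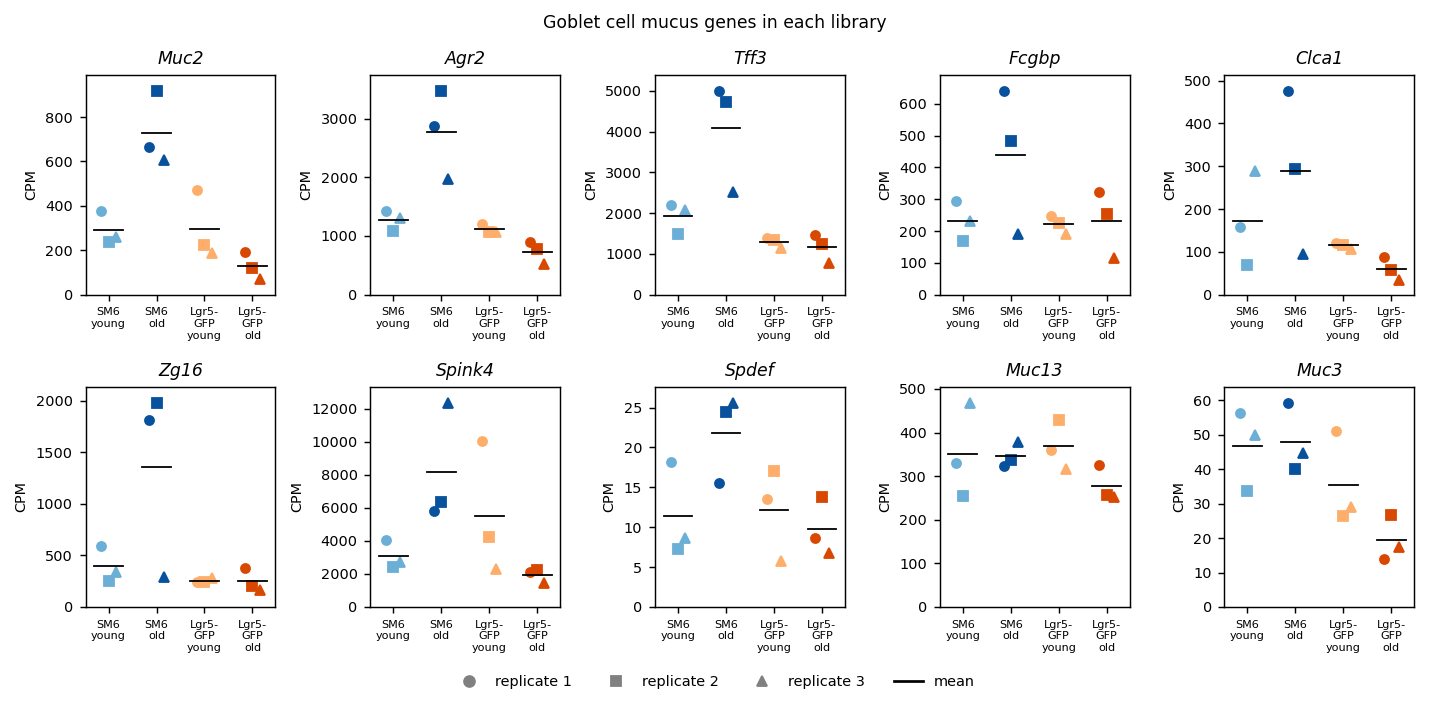
Level of each of the 10 genes (CPM, linear axis from 0) in the 12 libraries, by group, with 1 point per library and a line at the group mean. SM6 old is the highest group for Muc2, Agr2 and Tff3, with 918 CPM as the highest Muc2 value, whereas the 4 groups of Muc13 lie between 252 and 468 CPM.

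In SM6, 5 of the 10 genes were higher in old than in young ISCs: Muc2, Agr2, Tff3, Zg16 and Spink4. None was called lower. Over all genes tested, 0.643% were called higher and 1.77% lower. As a median, their log2 fold change was 1.01, against -0.00695 for all genes. Old and young libraries were fully separate for 4 of the 10, against 17.5% of all genes.

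Muc2, the gel-forming mucin of the intestine, had 379, 237 and 258 CPM in replicates 1 to 3 of SM6 young and 667, 918 and 605 CPM in those of SM6 old. Every old library was above every young one. The fold change was 2.51 (log2 1.33 ± 0.30 SE, adjusted p = 0.016). The call was lost when either young replicate 2 (adjusted p = 0.116), young replicate 3 (0.0845) or old replicate 2 (0.107) was left out and with DESeq2 (0.0791), with the log2 change at 1.13 or more in each.

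Agr2 encodes a disulfide isomerase of the endoplasmic reticulum that MUC2 production depends on. Its level was 1419, 1081 and 1299 CPM in SM6 young and 2881, 3473 and 1964 CPM in SM6 old, with no overlap. It was 2.19-fold higher in old ISCs (log2 1.13 ± 0.21 SE, adjusted p = 0.0031). This was the call that held under all 20 alternatives run for it, with a log2 change of 0.94 to 1.34 and a highest adjusted p of 0.0346.

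Tff3, the trefoil peptide secreted with mucus, had 2201, 1493 and 2066 CPM in SM6 young and 5003, 4738 and 2509 CPM in SM6 old. Old replicate 3 was closest to the young ones, without overlap. The change was 2.13-fold (log2 1.09 ± 0.24 SE, adjusted p = 0.011). Leaving out SM6 young replicate 2 gave an adjusted p of 0.103, and leaving out old replicate 1 or 2 gave 0.0896 or 0.0674.

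Zg16 encodes a lectin-like protein of mucus that binds Gram-positive bacteria. It had 595, 254 and 334 CPM in SM6 young and 1813, 1975 and 288 CPM in SM6 old. Old replicate 3 lay within the young range, while the other two were far above it. The fitted change was the steepest of the 10 in this comparison, at 3.45-fold (log2 1.79 ± 0.43 SE, adjusted p = 0.022). The call was lost when any 1 of young replicate 2 (adjusted p = 0.152), young replicate 3 (0.105), old replicate 1 (0.121) and old replicate 2 (0.152) was left out, and with DESeq2 (0.13).

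Spink4 showed the opposite pattern among the old libraries. It had 4072, 2402 and 2740.4 CPM in SM6 young and 5826, 6344 and 12334 CPM in SM6 old, with no overlap and with old replicate 3 by far the highest. The change was 2.66-fold (log2 1.41 ± 0.35 SE, adjusted p = 0.031). That library was the one with 23.1% defensin counts. Without it the log2 change was 0.99 (adjusted p = 0.132), and adding the defensin share to the model gave 0.72 (adjusted p = 0.207). When Lgr5-GFP young replicate 1, the other library of high defensin share, was left out as well, the value stayed at 0.99 and was called (adjusted p = 0.0056). The call was also lost when young replicate 2 (adjusted p = 0.188) or young replicate 3 (0.131) was left out and with DESeq2 (0.173).

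The other members did not pass the threshold in SM6. Fcgbp, a large mucus protein that binds the Fc part of IgG, had a log2 change of 0.92 (95% interval 0.26 to 1.59, adjusted p = 0.159). Its old libraries had 641, 483 and 192 CPM against 169 to 293 CPM in young, and the log2 change went from 0.56 when old replicate 1 was left out (adjusted p = 0.582) to 1.29 when old replicate 3 was (adjusted p = 0.0067). With no filter Fcgbp was called (adjusted p = 5.8e-05), but so were 603 genes in all, against 323 with the filter. Clca1, a secreted metalloprotease of mucus, had 158, 69.3 and 289 CPM in young and 476, 293 and 95.1 CPM in old, with a log2 change of 0.75 (adjusted p = 0.456). Leaving out old replicate 1 gave 0.20 and young replicate 2 gave 0.37, whereas leaving out old replicate 3 gave 1.17 and young replicate 3 gave 1.34, and with no filter Clca1 was called (adjusted p = 0.0037). Spdef, the transcription factor of the set, was low at 12 to 36 counts per SM6 library, and its log2 change was 0.94 (95% interval 0.09 to 1.79, adjusted p = 0.312). With 1 library left out it ran from 0.68 (SM6 young replicate 2) to 1.46 (SM6 young replicate 1), and the defensin share in the model gave 0.59.

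Neither membrane mucin showed such a difference in SM6. Muc13 had 330.1, 255 and 468 CPM in young and 324, 338 and 379 CPM in old, with the old libraries inside the young range. Its log2 change of -0.01 had a 95% interval of -0.41 to 0.39. Muc3 had 33.8 to 56.4 CPM in young and 40.04 to 59.2 CPM in old, with a log2 change of 0.04 (95% interval -0.53 to 0.61). The interval of Muc13 did not reach the lower bound of 0.70 found for Muc2 and Agr2. Muc13 shares 184 exonic bases with an antisense gene, Gm15657, and whether counting used strand is not given in the sources used here.

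**Figure D2:**
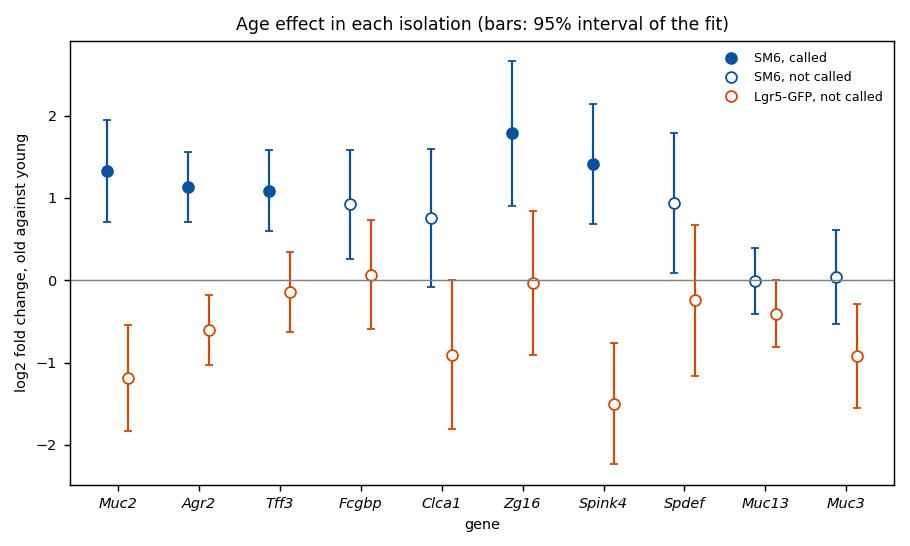
Log2 fold change of old against young for each gene in SM6 (blue) and Lgr5-GFP (orange), with bars for the 95% interval of the fit and filled points for genes called. The 5 called genes, all in SM6, have changes of 1.09 to 1.79, and 9 of the 10 Lgr5-GFP values lie below 0.

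In Lgr5-GFP, edgeR called 0 of the 10 genes for age, and 5 had an unadjusted p under 0.05, against 9.79% of all genes. DESeq2 and limma voom also called 0. With no filter 4 were called, but so were 274 genes in all, against 63 with the filter. Among all genes, 0.187% were called higher and 0.284% lower. The median log2 change of the 10 genes was -0.51, with 9 values below 0 and a median of -0.03 over all genes. With library totals alone, 7 of the 10 stayed below 0 and the median was -0.31, against 0.16 over all genes. Young and old libraries did not overlap for 3 of the 10 genes, against 14.6% of all genes.

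Spink4 had the smallest p of these. Lgr5-GFP young libraries had 10054, 4204 and 2313 CPM and old libraries 2141, 2238 and 1471 CPM, so the groups were just separate. The log2 change was -1.50 ± 0.36 SE, which is 2.83-fold lower, with an adjusted p of 0.057. Without Lgr5-GFP young replicate 1, which held 23.2% defensin counts, it was -0.74 (adjusted p = 0.43), and in the model with the defensin share it was -0.36 (adjusted p = 0.88). It was called with no filter, without SM6 old replicate 3 (adjusted p = 0.0145), without Lgr5-GFP young replicate 3 (-1.87, adjusted p = 0.0062) and when the 6 Lgr5-GFP libraries were fitted alone (adjusted p = 0.0388).

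Muc2 had 473, 223 and 186 CPM in Lgr5-GFP young and 193, 120.3 and 72.3 CPM in Lgr5-GFP old. A single old library, at 193 CPM, was above the lowest young one. The log2 change was -1.19 ± 0.31 SE with an adjusted p of 0.091. Leaving out 1 library gave values from -0.65 without Lgr5-GFP young replicate 1 (adjusted p = 0.509) to -1.61 without Lgr5-GFP old replicate 1 (adjusted p = 0.0535), and Muc2 was called without Lgr5-GFP young replicate 3 (-1.44, adjusted p = 0.0318), with no filter and with a replicate block (-1.18, adjusted p = 0.0226). In the model with the defensin share it was -0.84 (adjusted p = 0.616). Agr2 had 1201, 1071 and 1073 CPM in young and 903, 776 and 516 CPM in old. These groups did not overlap, and the log2 change was -0.61 ± 0.21 SE (adjusted p = 0.263). Clca1 did not overlap either, with 107 to 121 CPM in young and 34.7 to 88.6 CPM in old, at a log2 change of -0.90 (adjusted p = 0.511). That value was -1.91 in the model with the defensin share (adjusted p = 0.0882), and with no filter Clca1 was called (adjusted p = 0.00072).

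The remaining genes of the mucus gel had values near 0 for age in Lgr5-GFP. Tff3 had 1143 to 1402 CPM in young and 779 to 1473 CPM in old (log2 change -0.14, 95% interval -0.63 to 0.34). Fcgbp (0.07, interval -0.60 to 0.73) and Zg16 (-0.04, interval -0.91 to 0.83) were equally spread around 0. The direction of Tff3 and Zg16 turned with library totals alone, to 0.06 and 0.15, whereas the model with the defensin share gave -0.44 for Tff3, -0.65 for Zg16 and -0.34 for Fcgbp. Spdef had a log2 change of -0.24 from 7 to 43 counts per library, Muc13 of -0.40 (95% interval -0.81 to -0.0015, adjusted p = 0.508) and Muc3 of -0.92 (interval -1.56 to -0.29, adjusted p = 0.25). The Muc3 value was -0.53 without Lgr5-GFP young replicate 1, and Spdef ran from -0.60 without Lgr5-GFP young replicate 3 to -0.0085 without Lgr5-GFP young replicate 2.

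Averaged over both isolations, edgeR and DESeq2 called 0 of the 10 genes for age, limma voom called 1, and 4 had an unadjusted p under 0.05 in edgeR, against 12.8% of all genes. Among all genes 0.598% were called higher and 2.06% lower. The median log2 change of the members was 0.17, against -0.026 over all genes. Zg16 had the largest value, at 0.87 (95% interval 0.26 to 1.49, adjusted p = 0.151), and Muc2 was at 0.07 (interval -0.37 to 0.51). Without SM6 old replicate 3, 3 members were called higher: Zg16 (1.12), Fcgbp (0.68) and Tff3 (0.61).

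The age effects of the isolations were then compared directly, as Lgr5-GFP minus SM6. All 10 genes had a lower age effect in Lgr5-GFP, also with library totals alone, and 3 were called: Muc2, Agr2 and Spink4. Over all genes, 0.606% were called lower and 0.0524% higher. The median difference over the members was -1.44 on the log2 scale, against 0.00354 over all genes.

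For Muc2 the log2 difference was -2.52 ± 0.43 SE, for Agr2 -1.74 ± 0.29 and for Spink4 -2.91 ± 0.50, each with an adjusted p of 0.0055. With library totals alone Agr2 was at -1.42 (adjusted p = 0.055). In a model that held the defensin share, Agr2 was at -2.07 (adjusted p = 0.003), whereas Muc2 was at -2.03 (adjusted p = 0.173) and Spink4 at -1.07 (adjusted p = 0.642), and Clca1 went from -1.66 to -3.13 and was called (adjusted p = 0.026). Without both libraries of high defensin share, Muc2 (-2.09, adjusted p = 0.0024), Agr2 (-1.87, 0.00023) and Spink4 (-1.72, 0.0027) were each called. Tff3 (-1.23, adjusted p = 0.114), Zg16 (-1.82, adjusted p = 0.264) and Clca1 (-1.66, adjusted p = 0.338) did not pass. Without SM6 old replicate 3 these 3 did, at -1.49 (adjusted p = 0.0075), -2.31 (0.002) and -2.07 (0.0494). Tff3 was also called by DESeq2 (adjusted p = 0.0382), limma voom (0.0395), the replicate block (0.0498), with no filter (0.00011) and without both libraries of high defensin share (0.0093). The smallest difference was that of Muc13, at -0.39 (95% interval -0.96 to 0.18), which became -0.025 with library totals alone and ran from -0.65 without SM6 young replicate 3 to -0.21 without SM6 young replicate 2.

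At 2 months, edgeR, DESeq2 and limma voom called 0 of the 10 genes between Lgr5-GFP and SM6, and 2 had an unadjusted p under 0.05 in edgeR, against 7.47% of all genes. Over all genes 0.0524% were called higher and 0.0374% lower in Lgr5-GFP. The members had a median log2 difference of -0.12, against -0.0081 over all genes. Muc2 was at 294 ± 156 CPM in Lgr5-GFP and 291 ± 76.6 CPM in SM6 (log2 0.02, 95% interval -0.59 to 0.64). Agr2 was at 1115 ± 74.5 and 1266 ± 171 CPM (interval -0.61 to 0.24). The lowest p values were those of Tff3, which was lower in Lgr5-GFP without overlap (log2 -0.57, adjusted p = 0.596), and of Spink4, which was higher (log2 0.85, adjusted p = 0.596). The Spink4 value was 0.084 without Lgr5-GFP young replicate 1 and -0.16 with the defensin share in the model.

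At 22 months, 7 of the 10 genes were lower in Lgr5-GFP than in SM6. None was called higher. Over all genes 0.673% were called lower and 0.0449% higher, and libraries did not overlap for 7 of the 10 members against 13.5% of all genes. The median log2 difference of the members was -1.86, against 0 over all genes. This comparison uses the same old libraries as the age comparisons above, so the values are not independent of them.

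Agr2 was 3.79-fold lower in Lgr5-GFP (log2 -1.92 ± 0.21 SE, adjusted p = 1.2e-05), with 732 ± 197 CPM against 2773 ± 761 CPM. Muc2 was 5.63-fold lower (log2 -2.49 ± 0.32, adjusted p = 9.4e-05) and Tff3 3.49-fold lower (log2 -1.80 ± 0.24, adjusted p = 0.00015). Spink4 was 4.19-fold lower (log2 -2.07 ± 0.36, adjusted p = 0.0034), and it was also called in the model with the defensin share (-1.23, adjusted p = 0.0225). These 4 were called under all 20 alternatives, with adjusted p values of at most 0.0499.

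The other calls at 22 months rested on fewer libraries. Zg16 (log2 -2.45, adjusted p = 0.004) overlapped because of SM6 old replicate 3, at 288 CPM against 164 to 374 CPM in Lgr5-GFP old, and its adjusted p was 0.0568 without Lgr5-GFP old replicate 3. Clca1 (log2 -2.23, adjusted p = 0.011) lost its call when SM6 old replicate 1 (adjusted p = 0.111), or Lgr5-GFP old replicate 2 (0.0572) or 3 (0.102), was left out and with DESeq2 (0.0603). Muc3 (log2 -1.31, adjusted p = 0.044) lost it without any 1 of 6 libraries, with adjusted p values of 0.0543 for SM6 young replicate 3, then 0.202, 0.057 and 0.0667 for SM6 old replicates 1, 2 and 3, and 0.216 and 0.178 for Lgr5-GFP old replicates 1 and 3. The Muc3 call was also lost with library totals alone (-1.11, adjusted p = 0.0955) and in the model with the defensin share (-1.15, adjusted p = 0.215). Fcgbp (-0.92, adjusted p = 0.307), which ran from -0.53 without SM6 old replicate 1 to -1.26 without SM6 old replicate 3, where it was called (adjusted p = 0.0189), Spdef (-1.15, adjusted p = 0.365) and Muc13 (-0.32, adjusted p = 0.659) did not pass. Over the 20 alternatives Spdef lay between -1.48 and -0.64 and Muc13 between -0.45 and -0.10.

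**Figure D3:**
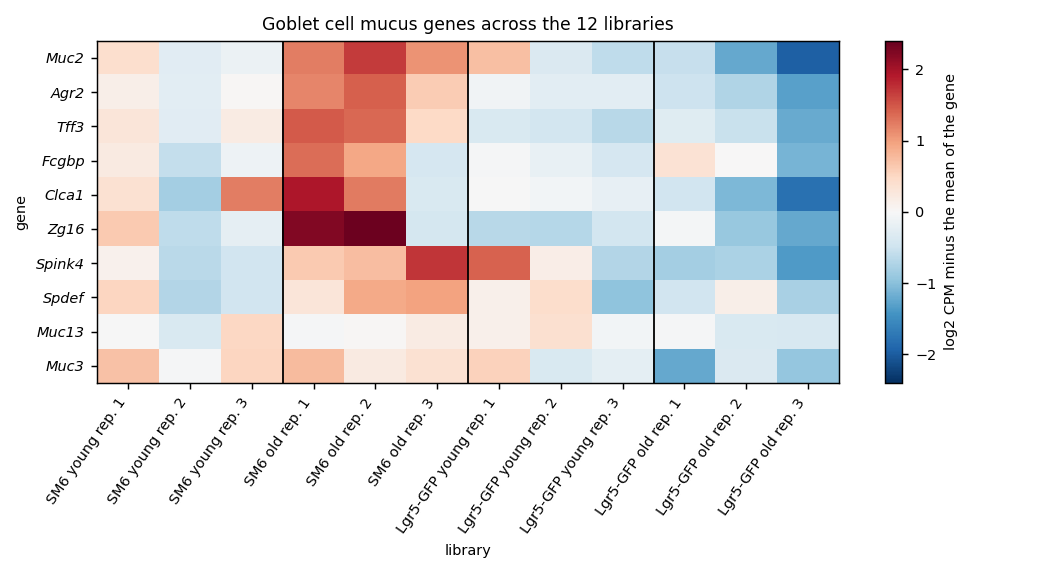
Level of each gene in each library as log2 CPM minus that gene's mean over the 12 libraries (red above, blue below the mean), with lines between the 4 groups. Muc2 runs from -1.96 in Lgr5-GFP old replicate 3 to 1.68 in SM6 old replicate 2, while SM6 old replicate 3 is high for Spink4 and below the mean for Zg16, Clca1 and Fcgbp.

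How the members followed each other is given as a description over the 12 libraries, which share groups and scaling. The closest pairs were Agr2 and Tff3 (Pearson r = 0.96), Muc2 and Agr2 (0.95) and Tff3 and Zg16 (0.92). After removal of the 4 group means these were 0.95, 0.75 and 0.86, and Tff3 and Fcgbp reached 0.99. The weakest pair was Zg16 and Muc13 (0.15). Muc13 had an r of at most 0.58 with any other member.

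The pattern most like that of Muc2, over 8326 genes with a mean of at least 10 CPM, was that of Ccl9, a chemokine gene on the list of other goblet markers (r = 0.95, within groups 0.82). Agr2 came second. The next were Dpep1 (0.94), Lrrc26 (0.93), Bcas1 (0.93), Ramp1 (0.92), Smim14 (0.92) and Atp2a3 (0.91). Of these 8, Ccl9, Lrrc26, Bcas1, Ramp1 and Smim14 are on the goblet marker list. Tff3 was thirteenth in this order and Spink4 came at rank 27, whereas Muc13 came at rank 941.

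Spink4 moved with the defensin share of the libraries. Its Pearson r with the log2 defensin share was 0.77 over the 12 libraries (Spearman 0.69), 0.47 without the libraries of 23.1% and 23.2%, and 0.72 within groups. Spdef had 0.54 and Muc2 0.45, which became 0.44 and 0.25 without those libraries. Within groups, Clca1 (-0.61) and Zg16 (-0.46) ran the opposite way.

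The Paneth cell list had values of the same sign as most members. For age, 12 of its 12 genes were above 0 in SM6, 1 of them called, and 12 of 12 below 0 in Lgr5-GFP, 4 of them called, and for the difference 11 were called lower. Its summed level was 13032 to 88536 CPM in SM6 young, 54256 to 331581 in SM6 old, 57961 to 321713 in Lgr5-GFP young and 22919 to 39027 in Lgr5-GFP old. The enterocyte list had 5 of 12 genes higher in SM6 and 3 of 12 lower in Lgr5-GFP, with summed levels of 2013 to 2144, 2653 to 9452, 1845 to 3173 and 2128 to 11971 CPM in the same order of groups. The stem cell list had 3 of 14 genes lower in SM6 and 0 called in Lgr5-GFP, where 3 had an unadjusted p under 0.05, with summed levels of 13662 to 16828, 8865 to 9991, 13388 to 15232 and 11534 to 13245 CPM. The enteroendocrine list had 2 of 11 genes higher in SM6 and 7 of 11 lower in Lgr5-GFP at 22 months, with summed levels of 761 to 1350, 1076 to 3226, 137 to 312 and 74.3 to 165 CPM. For the difference of the age effects, 11 of 12 enterocyte genes were below 0, 6 of them called (median log2 -2.36). All 11 enteroendocrine genes were below 0 there, 1 of them called (median -1.91). Both medians lay further below 0 than that of the members (-1.44). Of the stem cell genes 12 of 14 were above 0 and 0 were called. At 22 months 6 enterocyte genes were lower in Lgr5-GFP. The part of these other cell types in the member values was not tested beyond the model with the defensin share and the libraries left out above. Without both libraries of the highest defensin share, 6 of the 10 members were called for age in SM6, 0 in Lgr5-GFP and 5 for the difference. Over all genes 449, 85 and 63 were called then, against 323, 63 and 88 with all libraries.

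**Figure D4:**
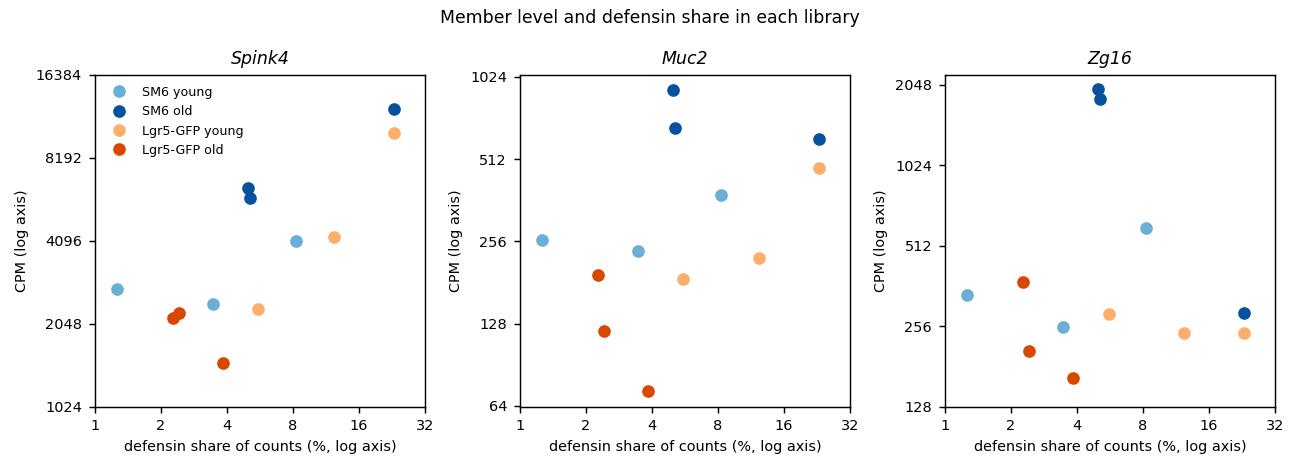
Level of Spink4, Muc2 and Zg16 (CPM, log axis) against the share of a library's counts in defensin genes (percent, log axis), with 1 point per library coloured by group. Spink4 is highest, at 10054 and 12334 CPM, in the libraries with 23.2% and 23.1% defensin counts, whereas Zg16 is at 241 and 288 CPM there.

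Genes that act with the members were taken from lists, chosen with earlier results of these data known. Of 8 goblet transcription factors, all were tested, and in SM6 Atoh1 was higher in old ISCs and Foxa3 lower. Atoh1, which commits cells to the secretory lineage, had 17.7 to 43.4 CPM in young and 63.1 to 79.5 CPM in old (log2 1.15 ± 0.29 SE, adjusted p = 0.033). Foxa3, a forkhead factor of goblet cells, had 269 to 314 CPM in young and 111 to 202 CPM in old (log2 -0.89 ± 0.18, adjusted p = 0.007). Neither was called in Lgr5-GFP, where 0 of the 8 factors were called and 3 had an unadjusted p under 0.05. The difference of the age effects was -1.61 for Atoh1 (adjusted p = 0.103), -1.35 for Creb3l4 (0.104) and -1.26 for Klf4 (0.166). Leaving out any 1 of the 3 SM6 old libraries or SM6 young replicate 2 gave 1 or 0 calls in SM6 instead of 2, and Atoh1 was not called with library totals alone or with the defensin share in the model. At 22 months Atoh1 (log2 -1.41, adjusted p = 0.023) and Klf4 (-1.19, adjusted p = 0.032) were lower in Lgr5-GFP, with 1 or 0 calls in the list when any 1 of the 6 old libraries other than Lgr5-GFP old replicate 2 was left out, and 1 with library totals alone or with the defensin share in the model.

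For the glycosylation of mucins, 14 of 17 listed genes were tested. Of these 2 were higher in old SM6 ISCs: Galnt12, which adds the first sugar of O-glycans, at 24.4 to 37.6 CPM in young and 55.1 to 89.6 CPM in old (log2 1.31 ± 0.28, adjusted p = 0.0093), and St3gal4, a sialyltransferase (log2 1.45 ± 0.38, adjusted p = 0.04). St3gal4 overlapped, with 20.0 to 29.7 CPM in young and 110, 74.0 and 27.2 CPM in old. The list had 1 or 0 calls instead of 2 when SM6 old replicate 1 or 2 or any 1 young SM6 library was left out. The list's median was 0.44 in SM6 and -0.02 in Lgr5-GFP, where 0 were called and 3 had an unadjusted p under 0.05. None was called for the difference of the age effects, with 3 at an unadjusted p under 0.05.

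Genes for folding in the secretory pathway were also listed. All 13 listed genes were tested, and all 13 had values above 0 for age in SM6 and below 0 in Lgr5-GFP, which became 12 and 11 of 13 with library totals alone and also with the defensin share in the model. In SM6, 3 were higher in old ISCs. Fkbp11, an endoplasmic reticulum prolyl isomerase, had 8.87 to 11.6 CPM in young and 28.8 to 41.4 CPM in old (log2 1.74 ± 0.33, adjusted p = 0.0036). Dnajc10, a disulfide reductase of the same compartment (1.09 ± 0.26, adjusted p = 0.02), and Xbp1, the transcription factor of the unfolded protein response (0.70 ± 0.17, adjusted p = 0.027), also passed. Without SM6 young replicate 2, SM6 young replicate 3 or SM6 old replicate 3, or with the defensin share in the model, 1 gene of the list was called.

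In Lgr5-GFP, 3 other genes of this list were lower in old ISCs: Sdf2l1 (log2 -1.09 ± 0.21, adjusted p = 0.019), Creld2 (-0.98 ± 0.22, adjusted p = 0.038) and Manf (-0.70 ± 0.16, adjusted p = 0.049), all encoding endoplasmic reticulum proteins. Manf had 199 to 219 CPM in young and 103 to 145 CPM in old, without overlap. With library totals alone or with the defensin share in the model 0 genes of the list were called there, as without Lgr5-GFP young replicate 3 or Lgr5-GFP old replicate 1 or 3, and 1 was called without Lgr5-GFP young replicate 2 or SM6 young replicate 2. For the difference of the age effects 5 of the 13 were called lower, among them Fkbp11 (-2.98), Manf (-1.27), Creld2 (-1.55) and Xbp1 (-1.20), against 1 with library totals alone, 1 with the defensin share in the model and 3 without SM6 young replicate 2 or Lgr5-GFP old replicate 3. At 22 months 4 were lower in Lgr5-GFP: Txndc5 (-1.004), Pdia5 (-1.41), Manf (-0.75) and Fkbp11 (-1.44), which became 1 with library totals alone, 1 with the defensin share in the model, 1 without Lgr5-GFP old replicate 3, and 2 without SM6 old replicate 1 or 3 or Lgr5-GFP old replicate 2.

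Of 20 other goblet markers, 19 were tested, and Tff1 was at 0 in every library. In SM6, 1 was higher in old ISCs, Ramp1, a receptor accessory protein, with 10.1 to 23.1 CPM in young and 36.6 to 74.3 CPM in old (log2 1.90 ± 0.42, adjusted p = 0.0125). Klk1 (0.86, adjusted p = 0.0545), Smim14 (0.80, 0.0639) and Bcas1 (1.10, 0.0893) came next. None was called without SM6 young replicate 2 or 3 or SM6 old replicate 2, and 3 were called without SM6 old replicate 3 or Lgr5-GFP young replicate 1 or 3. The list's median was 0.94 in SM6 and -0.64 in Lgr5-GFP, where 0 were called and 6 had an unadjusted p under 0.05. For the difference 3 were called lower: Ramp1 (-3.34), Smim14 (-1.44) and Ccl9 (-2.01). None was called without Lgr5-GFP young replicate 1 or with the defensin share in the model, and 1 was called with library totals alone and without SM6 young replicate 2 or 3, SM6 old replicate 2, or Lgr5-GFP old replicate 2 or 3. At 22 months 7 were lower in Lgr5-GFP, among them Bcas1 (log2 -2.49, adjusted p = 0.00093) and Ccl9 (-2.09, adjusted p = 0.0022). In this comparison 3 were called with the defensin share in the model, 2 without Lgr5-GFP old replicate 3, and 4 without SM6 old replicate 2 or Lgr5-GFP old replicate 1 or 2.

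Other mucin genes were mostly silent at this depth. Of 9 that were matched, Muc5ac, Muc5b, Muc15, Muc16 and Muc19 were at 0 in all 12 libraries, which allows up to 3 counts in each. Muc4, a membrane mucin, had 44 to 244 counts and a log2 age change of -0.56 in SM6 (adjusted p = 0.583) and 0.43 in Lgr5-GFP (adjusted p = 0.77). Muc6, a gel-forming mucin best known from gastric and duodenal glands, had at most 14 counts.

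**Figure D5:**
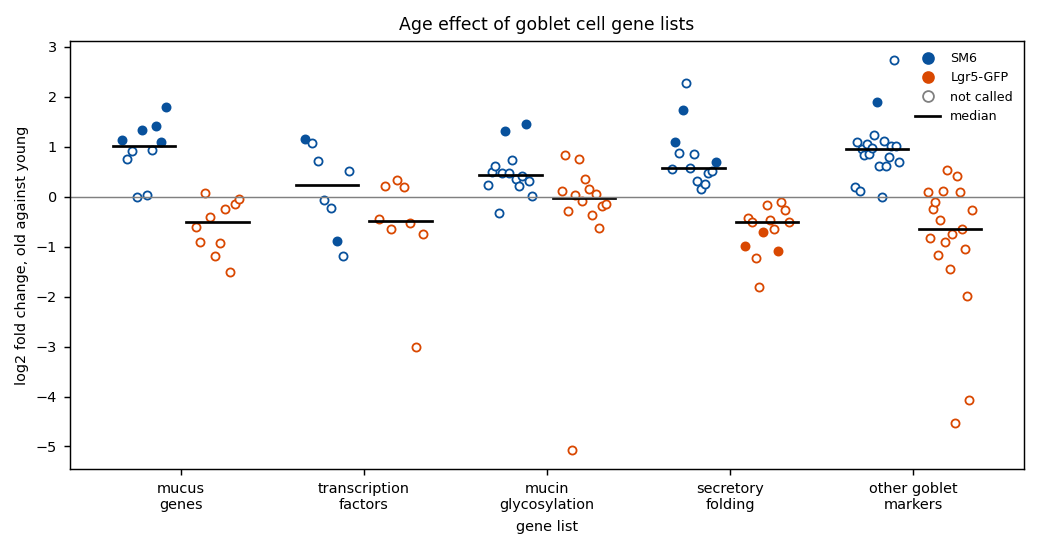
Log2 fold change of old against young for every tested gene of the 10 mucus genes and of 4 further goblet cell lists, in SM6 (blue) and Lgr5-GFP (orange), with filled points for called genes and lines at the list medians. The medians in SM6 are 1.01, 0.23, 0.44, 0.57 and 0.94 from left to right, and those in Lgr5-GFP are -0.51, -0.49, -0.02, -0.51 and -0.64.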

How the data were processed

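Per the labels and the study's methods, the authors aligned the reads to GRCm38 with STAR 2.4.2a and counted them over exons of GENCODE genes with featureCounts. The deposited values are these raw counts per gene. Molecular identifiers were in the reads. Whether they were collapsed is not given in the sources used here, so the Wilson intervals of shares cover counting error only, whereas intervals of log2 changes come from the fit across libraries. No column of values was left unused (0).

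The main test came from edgeR 4.0.16, with DESeq2 1.42.0 and limma 3.58.1 as alternatives, all under R 4.3.3, and plots were made in Python 3.11.15 (matplotlib 3.10.9). A gene was kept with more than 5 reads and at least 1 CPM in at least 1 library, which left 13368 genes. All 12 libraries entered 1 quasi-likelihood fit, with a mean for each group and TMM scaling (common dispersion 0.0434), and tests were two-sided and adjusted by Benjamini-Hochberg. The study ran its differential expression tests on other libraries, not on these. It did examine these libraries by principal components and pairwise correlation, and reported that both isolations moved from the young state along a shared path. Those analyses took many genes together, whereas the values here are of single genes. Libraries are named replicates as in the labels, each from 1 mouse.

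The members and lists were chosen with earlier results of these data known. All members were named. Of each list, up to 4 genes with the smallest p in the comparison described were named, and of genes like Muc2 the 8 with the highest r of log2 CPM (prior count 2, mean of at least 10 CPM). Lgr5, the mucins of the other mucin list and the genes at 0 were named beside this rule, as was Tff2, chosen after its values were seen. Symbols came from a name table (54079 of 54232 identifiers), positions from GENCODE vM21 on the same build (54165 matched).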

Additional observations from a re-analysis of the deposited data

Results flagged for a closer look

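The age effect differed between the isolations, by the test of the difference itself (Lgr5-GFP minus SM6, edgeR's quasi-likelihood test, Benjamini-Hochberg adjustment), for 3 mucus genes and 7 named genes of the goblet lists. Among the mucus genes the log2 difference was -2.52 for Muc2, -1.74 for Agr2 and -2.91 for Spink4, each with an adjusted p of 0.0055. In the folding list it was -2.98 for Fkbp11 (adjusted p = 0.0034), -1.27 for Manf (0.0076), -1.55 for Creld2 (0.0128) and -1.20 for Xbp1 (0.0155). Among the other goblet markers it was -3.34 for Ramp1 (adjusted p = 0.0104), -1.44 for Smim14 (0.0379) and -2.01 for Ccl9 (0.0456). With the defensin share in the model, Muc2 (-2.03, adjusted p = 0.173) and Spink4 (-1.07, adjusted p = 0.642) were no longer called, and the folding list had 1 call and the other goblet markers 0. Over all genes, calls for the difference went from 88 to 33 in that model. The mean defensin share rose with age in SM6 and fell in Lgr5-GFP, so the model cannot fully tell the share apart from the difference. Without both libraries of highest defensin share Muc2 (-2.09, adjusted p = 0.0024) and Spink4 (-1.72, adjusted p = 0.0027) were called. With library totals alone Agr2 (-1.42, adjusted p = 0.055) was no longer called, and each of these lists had 1 call. In each of the 10 the age effect was above 0 in SM6 and below 0 in Lgr5-GFP.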

How the results depend on the processing

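Across the 20 alternatives run for each, Muc2, Agr2, Tff3 and Spink4 stayed called lower in Lgr5-GFP at 22 months, Agr2 stayed called higher with age in SM6, and no member value turned direction at 22 months or under the 19 alternatives run for the difference of the age effects. Each reversal below concerns a value that was not called in the reported test, and the cause was not tested. Among the members, Spdef (7 to 43 counts) and Muc3 (18 to 162 counts) had the fewest counts.

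The number of members called for age in SM6 (5) was 2 with DESeq2, 4 with the defensin share in the model, 7 with no filter and 1 to 5 with 1 library left out (1 without SM6 young replicate 2, 2 without SM6 young replicate 3 or SM6 old replicate 2, 3 without SM6 old replicate 1). Over all genes, the 323 calls became 344, 289, 603 and 146 to 404 in the same order. With no filter, adjusted p values also fell far where groups overlapped, as for Zg16 in SM6 (2.7e-19 against 0.022). Those p values are not read as stronger evidence. For age in Lgr5-GFP (0) the number of members was 4 with no filter, 1 with the 6 libraries alone and 0 to 2 with 1 library left out (1 without SM6 old replicate 3, 2 without Lgr5-GFP young replicate 3). The 63 calls over all genes became 274, 83 and 26 to 113 in that order. For the average (0) the number of members was 3 with no filter, 1 with limma voom, 3 without both libraries of highest defensin share, an alternative chosen after seeing the data, and 0 to 3 with 1 library left out (3 without SM6 old replicate 3). The 355 calls over all genes became 590, 463, 392 and 229 to 471 in that order. For the difference of the age effects (3) the number of members was 2 with library totals alone, 2 with the defensin share in the model, 6 with no filter, 5 without both and 3 to 6 with 1 library left out (6 without SM6 old replicate 3). The 88 calls over all genes became 113, 33, 224, 63 and 43 to 98 in that order. At 2 months (0) the number of members was 1 with no filter, where calls over all genes went from 12 to 125. At 22 months (7) both the defensin share in the model and library totals alone gave 6, with 8 under no filter and 4 to 7 with 1 library left out (4 without Lgr5-GFP old replicate 3). The 96 calls over all genes became 86, 107, 228 and 40 to 121 in that order.

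Libraries that share a replicate number did not deviate together: 0 of 18 pairs had a correlation over 0.1 (range -0.07 to 0.05), and 4 of 12 libraries correlated best with their own number. With the replicate block, 5, 1, 0, 4, 0 and 7 members were called in the comparisons in the order above. The block turned Fcgbp in Lgr5-GFP to -0.0353, Spink4 in the average to 0.0665 and Muc2 at 2 months to -0.0596.

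Log2 values that turned direction with library totals alone were those of Muc3 in SM6 (-0.10), Tff3 (0.0604) and Zg16 (0.15) in Lgr5-GFP, and Muc2 (-0.16), Spdef (-0.13) and Muc13 (-0.0796) at 2 months. DESeq2 turned Muc13 in SM6 (0.0028). Limma voom turned Muc13 in SM6 (0.0568), Zg16 in Lgr5-GFP (0.0546), Clca1 (0.12) and Spink4 (0.0114) in the average, and Muc2 (-0.0331) and Fcgbp (0.0385) at 2 months. The defensin share in the model turned Muc13 (0.0422) and Muc3 (-0.0893) in SM6, Fcgbp (-0.34) and Spdef (0.47) in Lgr5-GFP, Spink4 in the average (0.18), and Muc2 (-0.25), Agr2 (0.0013), Fcgbp (0.26), Clca1 (0.34), Spink4 (-0.16) and Spdef (-0.53) at 2 months. Leaving out both libraries of highest defensin share turned Clca1 (0.16) and Spink4 (0.13) in the average and Muc2 (-0.52) and Spdef (-0.15) at 2 months. With 1 library left out, values ranged from -0.20 to 0.25 for Muc13 and -0.15 to 0.21 for Muc3 in SM6, from -0.26 to 0.38 for Fcgbp, -0.47 to 0.18 for Zg16 and -0.34 to 0.0779 for Tff3 in Lgr5-GFP, from -0.14 to 0.34 for Muc2, -0.35 to 0.22 for Clca1 and -0.25 to 0.34 for Spink4 in the average, and from -0.51 to 0.27 for Muc2, -0.25 to 0.15 for Fcgbp, -0.96 to 0.0194 for Clca1, -0.23 to 0.55 for Spdef and -0.12 to 0.33 for Muc13 at 2 months.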

Other observations

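Tff2, the trefoil peptide of gastric and duodenal glands, and Muc6, a gel-forming mucin of the same glands, were read in few libraries, and both were highest in the libraries with the highest defensin shares. Tff2 had 40 counts in SM6 old replicate 3 and 63 in Lgr5-GFP young replicate 1, against 0 to 7 in the other 10 libraries. Muc6 had 14 and 7 counts in the same libraries, against 0 to 3 in the others. Tff2 was chosen after its values were seen, and neither gene was called for age.

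Within SM6 old, replicate 3 had the highest level of Spink4 (12334 CPM) and of Spdef (25.6 CPM) and the lowest of Muc2 (605 CPM), Agr2 (1964 CPM), Tff3 (2509 CPM), Fcgbp (192 CPM), Clca1 (95.1 CPM) and Zg16 (288 CPM). Its Zg16 level was below that of SM6 young replicates 1 and 3, at 595 and 334 CPM. Spink4 made up 66.9% of its member counts, against 32.9% and 34.1% in SM6 old replicates 1 and 2.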
